A study of Mus musculus with 4 samples.

Results

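The mRNAs described here are those that mouse mitochondrial DNA encodes for respiratory complexes III, IV and V: mt-Co1, mt-Co2 and mt-Co3 (cytochrome c oxidase, complex IV), mt-Atp6 and mt-Atp8 (ATP synthase, complex V) and mt-Cytb (cytochrome b, complex III). They were chosen by symbol, as all reads of the deposited table that carry 1 of these 6 symbols and a tail length above 0 nucleotides (nt). Of the 6 symbols 5 had reads, 54938 reads in all out of 1903919 reads on 13831 symbols. The reads came from direct RNA nanopore sequencing, in which a native RNA strand passes through a pore from its 3′ end, so that each read is a single molecule with its own poly(A) tail. The cells were J1 mouse embryonic stem cells grown without further treatment in medium with fetal calf serum and the cytokine LIF, of wild-type (WT) genotype or with a knockout (KO) of Mov10, an RNA helicase. There were 2 libraries of WT cells (WT 1, WT 2) and 2 of KO cells (KO 1, KO 2). The labels do not say whether the libraries came from separate cultures or whether the KO line is a single clone, so p-values measure only the spread between these libraries, which may be technical.

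Mitochondrial DNA is transcribed into long precursor RNAs that are cut mostly at the transfer RNAs lying between the genes. The mitochondrial poly(A) polymerase, encoded in the nucleus by Mtpap, then adds a tail that is short beside those of most cytoplasmic mRNAs and that completes the stop codon of some of them. Most of the proteins belong to the catalytic or proton-conducting cores of their complexes, into which subunits imported from the cytoplasm are also built.

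Sequencing depth ranged from 351133 reads in WT 2 to 683239 reads in KO 1. Mov10, the targeted gene, had 26 reads in WT 1, 14 reads in WT 2, 0 reads in KO 1 and 1 read in KO 2. All 10 stem cell markers of a fixed list had reads in each library, with a summed level, in reads per 1000000 reads (RPM), of 9519 RPM in WT 1, 9637 RPM in WT 2, 8307 RPM in KO 1 and 7288 RPM in KO 2. Both KO libraries thus lay below both WT libraries in this sum, and its part in the results below was not tested. Of 6 fibroblast markers, which feeder cells would carry, 5 were at 0 reads in each library, Col1a1, Col1a2 and Col3a1 among them, and the list summed to between 5.70 RPM in WT 2 and 14.0 RPM in KO 2. Endoderm and mesoderm markers together came to at most 4 reads in a library. In bulk RNA, fewer cells of a type and less RNA per cell cannot be told apart.

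The first question was how long the tails of these mRNAs were and how they differed among themselves. They were short, with medians between 46.7 and 69.1 nt, where the median over all reads of a library lay between 97.3 and 105.8 nt. The tails of each mRNA formed a narrow peak. The order was nearly fixed: mt-Co3 had the longest tails, followed by mt-Atp6 and mt-Co1, and mt-Co2 and mt-Cytb had the shortest.

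Among the complex IV mRNAs, mt-Co3 (ENSMUSG00000064358.1), for the third core subunit, had a median tail of 66.6 nt in WT 1, 66.6 nt in WT 2, 68.3 nt in KO 1 and 69.1 nt in KO 2. mt-Co1 (ENSMUSG00000064351.1), for the subunit that holds the site where oxygen is reduced, had 59.3 nt in WT 1, 62.0 nt in WT 2, 61.6 nt in KO 1 and 64.3 nt in KO 2. mt-Co2 (ENSMUSG00000064354.1), for the subunit that takes electrons from cytochrome c, had 48.3 nt in WT 1, 52.1 nt in WT 2, 50.9 nt in KO 1 and 52.8 nt in KO 2. The mRNAs of this single enzyme therefore covered nearly the whole range of the family, and the 95% intervals of their medians did not meet in any library.

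The complex V mRNA mt-Atp6 (ENSMUSG00000064357.1), for the membrane subunit through which protons pass, had median tails of 62.4 nt in WT 1, 63.0 nt in WT 2, 64.6 nt in KO 1 and 66.4 nt in KO 2. The complex III mRNA mt-Cytb (ENSMUSG00000064370.1) had 46.7 nt in WT 1, 56.3 nt in WT 2, 52.3 nt in KO 1 and 56.6 nt in KO 2. It was the most variable of the 5 between libraries, with an SD of 4.60 nt over the 4 libraries, against 1.27 nt for mt-Co3. The 95% intervals of these medians, exact from the order of the reads and covering read sampling only, were narrow: mt-Cytb in WT 1 had 45.9 to 47.7 nt and in WT 2 54.7 to 57.1 nt. The gap between the WT libraries in mt-Cytb was thus larger than read sampling allows.

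Symbol mt-Atp8 had 0 reads in each library, where a count of 0 allows up to 3 reads, or between 4.39 RPM in KO 1 and 8.54 RPM in WT 2. The mt-Atp8 and mt-Atp6 reading frames overlap and are known to share an mRNA. A molecule of that mRNA read from its 3′ end starts in mt-Atp6, so the mt-Atp6 values below may describe the mRNA of both proteins, which cannot be told apart here.

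**Figure D1:**
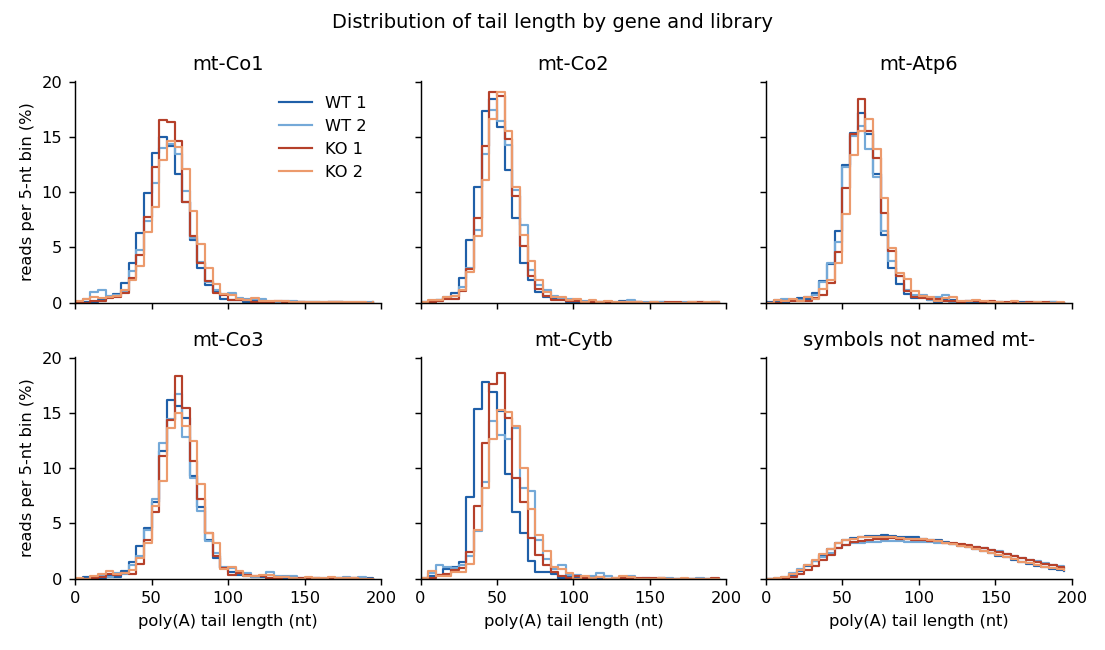
Distribution of poly(A) tail length (horizontal axis, nt) as the percentage of reads per 5-nt bin (vertical axis) for 5 mitochondrial mRNAs and for all symbols not named mt-, with 1 line per library. Each mitochondrial mRNA has a narrow peak between 40 and 70 nt, and mt-Cytb of WT 1 is shifted to shorter tails, while the other reads spread over the whole range.

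Differences between the mRNAs were computed within each library, as the log2 ratio of their medians, for the 10 pairs that 5 mRNAs form. In 9 of the 10 pairs the same mRNA had the longer tail in all 4 libraries. An exact two-sided sign-flip permutation test over 4 libraries cannot give a p under 0.125, and each of the 9 pairs reached that value (Benjamini-Hochberg adjusted p = 0.139 over 10 pairs), so no pair could pass 0.05. The median of mt-Co2 was 0.753 times that of mt-Co3, with log2 ratios from -0.46 to -0.36, and the median of mt-Co1 was 1.21 times that of mt-Co2, with a log2 ratio of 0.28 ± 0.02 (SD, n = 4). Neighbours in the order lay closer: the log2 ratio of mt-Atp6 to mt-Co3 was -0.08 ± 0.02 (SD, n = 4) and that of mt-Co1 to mt-Atp6 was -0.05 ± 0.02 (SD, n = 4). The exception was the pair of mt-Co2 and mt-Cytb, whose log2 ratio of -0.05 ± 0.07 (SD, n = 4) was smaller than its spread (exact permutation p = 0.375). WT 1 was the only library in which mt-Cytb had shorter tails than mt-Co2; without WT 1 all 10 pairs had 1 direction in the remaining libraries.

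**Figure D2:**
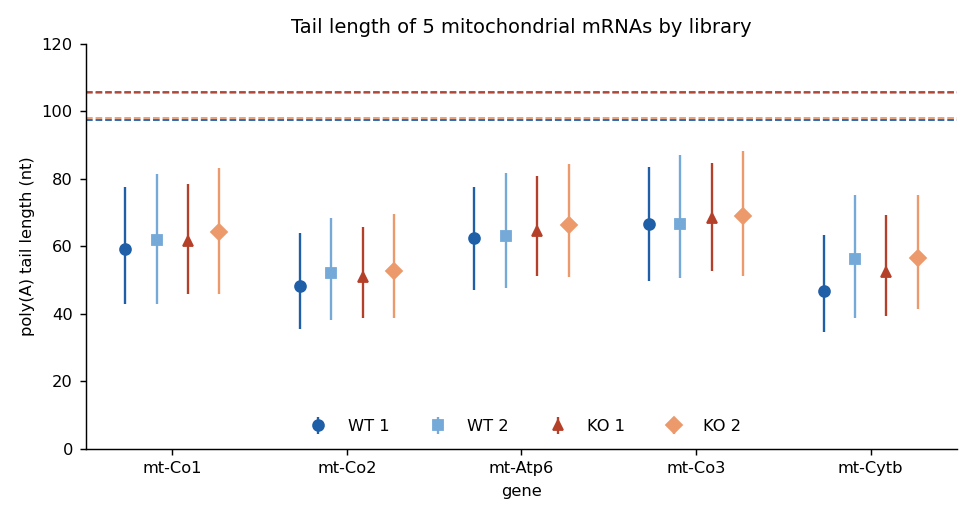
Median tail length (nt, symbols) with bars from the 10th to the 90th percentile of reads, for 5 mitochondrial mRNAs in 4 libraries; dashed lines are the medians over all reads of each library in the same colours. All medians of the 5 mRNAs, from 46.7 to 69.1 nt, lie below the library medians, and mt-Co2 and mt-Cytb lie below the other 3.

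The narrowness of the peaks was measured as the ratio of the 90th to the 10th percentile of tail length. It lay between 1.58 for mt-Atp6 in KO 1 and 1.95 for mt-Cytb in WT 2. For all genes with at least 50 reads in the library, the median of this ratio was between 3.66 in KO 1 and 3.87 in WT 2. Each of the 5 mRNAs was within the narrowest 1.01% of these genes in each library. The share of an mRNA's reads within 25% of its median on either side ran from 68.3% (mt-Cytb in WT 2) to 83.9% (mt-Atp6 in KO 1).

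Very short and very long tails were rare among the reads, which came from oligo(dT)-selected RNA. Molecules that this selection did not take up are not counted in these shares. Tails under 30 nt made up from 0.619% (mt-Atp6 in KO 1; 95% Wilson interval 0.382 to 1.00%) to 5.08% (mt-Cytb in WT 2; 3.83 to 6.71%) of an mRNA's reads. Pooled over the 5 mRNAs, WT 1 had 2.07%, WT 2 had 3.15%, KO 1 had 1.58% and KO 2 had 2.40% of such tails. For reads of symbols not named mt- the same libraries had 2.32%, 2.97%, 1.53% and 2.73%. Despite their short medians, the pooled mRNAs thus had about the same share of tails under 30 nt as the other reads. The libraries ranked WT 2 first and KO 1 last in both, but not in each mRNA. mt-Co2 was highest in WT 1 (3.86%), mt-Co3 was highest in KO 2 (1.91%) and lowest in WT 1 (0.777%), and mt-Cytb was lowest in KO 2 (2.55%). For mt-Co2 and mt-Cytb both KO libraries lay below both WT libraries, and for the others they overlapped. The share of all genes with such a separation was not computed. mt-Co1 in WT 2 had 3.87% (3.23 to 4.62%) of such tails, above the 1.66% (1.38 to 1.99%) of WT 1, 1.27% of KO 1 and 2.53% of KO 2. Tails of 150 nt or more made up between 0.402% (WT 1) and 0.719% (WT 2) of the reads of the 5 mRNAs, where the other reads had from 19.6% (WT 1) to 24.7% (WT 2). Intervals cover counting error only.

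Tail length was next set against that of other mitochondrial and partner genes. The 7 mitochondrially encoded complex I mRNAs (mt-Nd1 to mt-Nd6 and mt-Nd4l) had shorter tails still: over the 6 with at least 20 reads in each library, the middle value of the gene medians was 43.0 nt in WT 1, 45.2 nt in WT 2, 45.7 nt in KO 1 and 46.0 nt in KO 2. The same summary over the 5 mRNAs of complexes III to V was 59.3, 62.0, 61.6 and 64.3 nt, between 15.9 nt (KO 1) and 18.3 nt (KO 2) longer. The groups met at their edges: mt-Nd3, the complex I mRNA with the longest tails, had 48.5 nt in WT 1, 55.0 nt in WT 2, 53.8 nt in KO 1 and 54.1 nt in KO 2, longer than mt-Co2 in each library. Symbols mt-Rnr1 and mt-Rnr2, the mitochondrial ribosomal RNAs, had 0 reads.

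Nuclear-encoded subunits of the same complexes had much longer tails than the mitochondrial mRNAs. For scale, the median over all reads of symbols not named mt- lay between 100.1 nt (WT 1) and 108.2 nt (KO 1). Over the 11 nuclear complex IV genes the middle value of the gene medians was 102.8 nt in WT 1, 129.7 nt in WT 2, 122.9 nt in KO 1 and 120.2 nt in KO 2. In WT 2, KO 1 and KO 2 even the lowest of the 11 complex IV genes, at 119.0, 113.7 and 107.1 nt, lay above the median of those reads in its library. The 16 complex V genes had 95.7, 110.6, 104.3 and 104.8 nt in the same order, and the 10 genes for complex III and cytochrome c had 102.2, 112.9, 108.6 and 105.1 nt. No gene of these 3 groups reached down to the longest of the mitochondrial medians, the lowest being Atp5o of complex V with 78.2 nt in WT 1. WT 1 had the shortest tails in each of these 3 nuclear groups as well as in mt-Co1, mt-Co2, mt-Atp6 and mt-Cytb.

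Among all 1935 genes with at least 20 reads in each library, 15 had a median at or below that of the longest of the 5 mRNAs in every library. They were the 5 mRNAs, the 6 complex I mRNAs, and the symbols Gm10925, Gm28661, Gm29216 and Gm28438. The first 3 of these symbols share transcripts with the 5 mRNAs, as described next, and Gm28438 was listed only as one that may share reads with mitochondrial genes. By root mean square log2 difference over the 4 libraries from the mean of the 5 mRNAs, the genes most alike in tail length were Gm29216 (0.11), Gm10925 (0.13), mt-Nd3 (0.17), Gm28438 (0.18) and Gm28437 (0.19). With symbols named mt- left out, the closest 3 were Gm29216, Gm10925 and Gm28438.

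**Figure D3:**
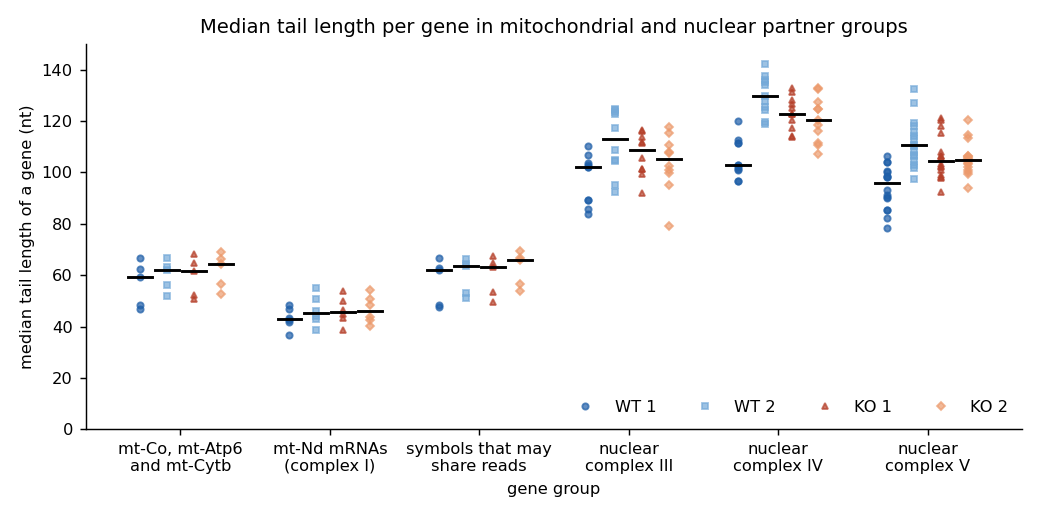
Median tail length of each gene (nt, symbols by library) in 6 gene groups, with black lines at the median over the genes of a group in each library. The mitochondrial mRNAs and the symbols that may share reads with them lie below 70 nt, and the nuclear subunits of complexes III, IV and V lie higher, the lowest being Atp5o at 78.2 nt in WT 1.

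Part of the reads from these mRNAs carried other symbols. In the table each read has a transcript and a symbol, and the assignments did not always match. On the main transcript of mt-Co3, 58.2% of 9629 reads had the symbol mt-Co3 and nearly all others had Gm28437; on that of mt-Atp6, 61.9% of 10143 reads had mt-Atp6 and nearly all others had Gm10925. Gm10925 is annotated as a pseudogene in RefSeq (GRCm38.p6), with mt-Atp6 among its synonyms. The share was 91.0% of 17562 reads for mt-Co2, whose partner was Gm28661, 96.8% of 19067 reads for mt-Co1, with Gm29216, and 99.96% of 5121 reads for mt-Cytb, which had no such partner. Counts of mt-Co3 and mt-Atp6 are therefore uncertain in level, as a large share of the reads on their transcripts carried another symbol.

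Tail lengths of the reads with either symbol lay close together. On the main transcript, reads named mt-Atp6 had medians of 62.2 nt in WT 1, 62.7 nt in WT 2, 64.6 nt in KO 1 and 66.5 nt in KO 2, and reads named Gm10925 had 63.0, 63.2, 64.9 and 66.7 nt. For mt-Co3 the values were 66.7, 66.3, 68.2 and 68.9 nt, and for Gm28437 67.0, 66.4, 67.6 and 69.1 nt. The reads with either name thus followed the same order over the libraries for mt-Atp6. In WT 1 the main transcript held 98.7% of the mt-Co1 reads, 97.0% of the mt-Co2 reads, 86.3% of the mt-Atp6 reads and 77.0% of the mt-Co3 reads, and nearly all the rest lay on a second transcript. On that second transcript in WT 1, mt-Co3 reads had a median of 66.3 nt and mt-Atp6 reads 63.1 nt.

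The split between the symbols was steady over libraries for 3 of the 4 pairs. Gm28437 took from 41.2% (WT 2) to 43.5% (WT 1) of the reads it shared with mt-Co3, Gm10925 from 38.4% (WT 2) to 40.5% (KO 2) with mt-Atp6, and Gm28661 from 8.66% (WT 2) to 10.6% (WT 1) with mt-Co2. Of the reads that Gm29216 shared with mt-Co1, it took 2.50% in library WT 1, where the 95% Wilson interval was 2.16 to 2.89%. WT 2 had 7.21% (6.37 to 8.16%), KO 1 had 8.62% (7.91 to 9.39%) and KO 2 had 5.84% (5.19 to 6.58%). WT 1 stood apart in this pair, with an interval that met none of the others.

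The comparison of genotypes asked whether tails differed between KO and WT. The medians of all 5 mRNAs were slightly higher in KO, by between 1.65 nt for mt-Co2 and 2.95 nt for mt-Cytb, and none passed the test. In limma, fitted on log2 medians over all 1935 genes, 0 genes (0%) were called at an adjusted p of 0.05. Without adjustment 45 genes lay under 0.05, none of them among the 5. The log2 changes were 0.05 for mt-Co1, 0.05 for mt-Co2, 0.04 for mt-Co3, 0.06 for mt-Atp6 and 0.09 for mt-Cytb, with standard errors from 0.08 to 0.10 and a limma adjusted p of 0.9998 for each. A log2 change above 0 was found for 5 of the 5 and for 51.8% of all genes tested; the 5 share precursors and libraries and are not independent of each other.

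mt-Co3 and mt-Atp6 had both KO medians above both WT medians, as did 14.7% of all genes tested. The WT mean of mt-Co3 was 66.6 nt ± 0.0212 (SD, n = 2) beside a KO mean of 68.7 nt ± 0.608 (SD, n = 2), and mt-Atp6 averaged 62.7 nt ± 0.445 (SD, n = 2) in WT against 65.5 nt ± 1.33 (SD, n = 2) in KO. The libraries overlapped for mt-Co1, with a WT mean of 60.7 nt ± 1.91 (SD, n = 2) and a KO mean of 63.0 nt ± 1.87 (SD, n = 2). They also overlapped for mt-Co2, with 50.2 nt ± 2.66 (SD, n = 2) and 51.8 nt ± 1.34 (SD, n = 2), and for mt-Cytb, with 51.5 nt ± 6.75 (SD, n = 2) and 54.4 nt ± 3.06 (SD, n = 2). Without WT 1 the log2 changes of mt-Cytb and mt-Co2 were -0.05 and -0.00670, and that of mt-Cytb was 0.22 without WT 2.

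The ends of the distributions were compared in the same way over 855 genes, those whose reads numbered 50 or more in each library. At the short end, the 10th percentile of mt-Co1 was 42.8 nt in WT 1, 43.0 nt in WT 2, 46.0 nt in KO 1 and 45.9 nt in KO 2. That of mt-Atp6 was 47.2 nt in WT 1, 47.5 nt in WT 2, 51.1 nt in KO 1 and 50.9 nt in KO 2. In both mRNAs the replicates lay closer to each other than to either library of the other genotype. mt-Cytb had 34.5 and 38.6 nt in WT and 39.2 and 41.3 nt in KO, mt-Co2 had 35.4 and 38.2 nt against 38.6 and 38.9 nt, and mt-Co3 had 49.7 and 50.6 nt against 52.7 and 51.2 nt. All 5 mRNAs thus had both KO libraries above both WT libraries at the 10th percentile, which 25% of all genes tested also had, against 5.26% with both KO libraries below.

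None of these passed limma's test: 0 of 855 genes had an adjusted p under 0.05 (0%), and 23 had an unadjusted p under 0.05. mt-Co1 was 1 of the 23, with a log2 change of 0.10, a standard error of 0.04 and an unadjusted p of 0.0330 (adjusted p = 0.994). The other log2 changes were 0.14 for mt-Cytb, 0.11 for mt-Atp6, 0.08 for mt-Co2 and 0.05 for mt-Co3; 5 of the 5 were above 0, beside 67.1% of all genes tested, and the median over all 855 genes was 0.06. Single libraries moved the values over all genes tested. Their median was -0.00597 with 49.1% above 0 without KO 1, and 0.132 with 82.2% above 0 without KO 2. With each library left out in turn, mt-Co1 stayed between 0.0962 and 0.103 and mt-Atp6 between 0.102 and 0.112. mt-Co3 ranged from 0.0297 to 0.0729. Without WT 1, mt-Cytb was at 0.0591 and mt-Co2 at 0.0224, and without WT 2 they were at 0.221 and 0.132. With each library centred on its median over genes, 0 of the 5 mRNAs kept libraries apart in this way (16.3% of all genes did), the log2 change of mt-Co3 was -0.00713 and the other 4 lay between 0.02 and 0.08.

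At the 90th percentile the 5 mRNAs had log2 changes from 0.02 (mt-Co3) to 0.06 (mt-Cytb), where 45.4% of all genes tested were above 0. The libraries of the genotypes overlapped for each. Of all genes tested, 11.6% had both KO libraries above both WT libraries and 13.7% had both below. In limma 1 of 855 genes passed (0.117%), Srsf7, which is no mitochondrial gene, and 26 had an unadjusted p under 0.05. Without WT 1 only mt-Atp6 stayed above 0, and without KO 2 mt-Co1, mt-Co2 and mt-Co3 were below 0.

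**Figure D4:**
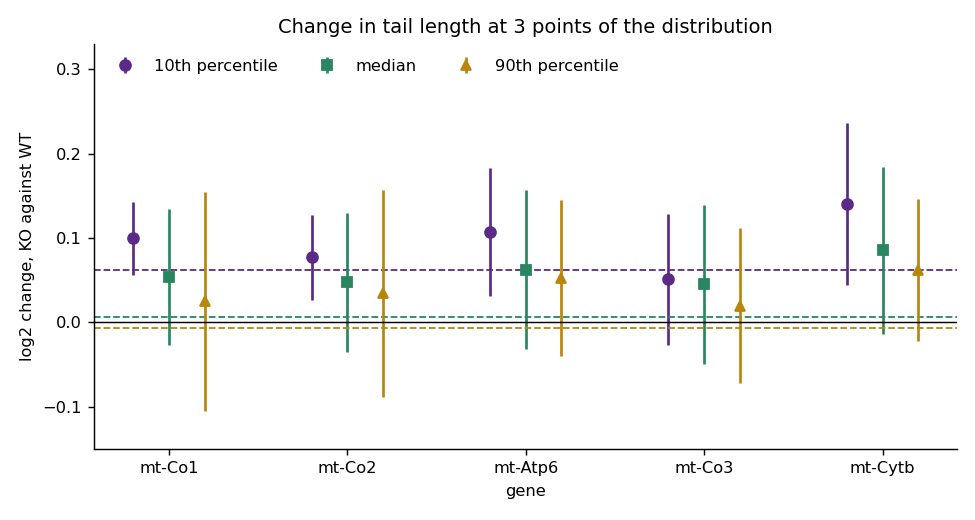
Log2 change of tail length in KO against WT for 5 mitochondrial mRNAs at the 10th percentile, median and 90th percentile of their reads, with bars of 1 standard error from limma; dashed lines are the medians over all genes tested. All 15 values are above 0, from 0.02 to 0.14, and none passed an adjusted p of 0.05. They come from the same mRNAs and libraries and are not independent of each other.

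Read number was then compared as a measure of abundance. Together the 5 mRNAs took 3.56% of the WT 1 library (95% Wilson interval 3.51 to 3.62%) and 2.57% of WT 2 (2.52 to 2.63%). They took 2.58% of KO 1 (2.54 to 2.62%) and 2.93% of KO 2 (2.89 to 2.99%). WT 1 was above the other 3 libraries, and the genotypes overlapped. Levels are given as RPM after median-of-ratios scaling and are compared between libraries for 1 gene at a time.

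mt-Co1 had 17214 RPM in WT 1, 8199 RPM in WT 2, 7273 RPM in KO 1 and 9159 RPM in KO 2, on 6821, 2972, 5119 and 4108 reads. mt-Co3 had 6493 RPM in WT 1, 2960 RPM in WT 2, 2786 RPM in KO 1 and 3266 RPM in KO 2. mt-Co2 had 8634 RPM in WT 1, 8378 RPM in WT 2, 8576 RPM in KO 1 and 8851 RPM in KO 2. WT 1 thus stood far above the other libraries for mt-Co1 and mt-Co3. On this scale mt-Co2, from the same enzyme, was level in all 4 libraries. Scaled by total reads, mt-Co2 was less level, with 7783 RPM in WT 1, 8649 RPM in WT 2, 8834 RPM in KO 1 and 9232 RPM in KO 2.

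mt-Atp6 had 4954 RPM in WT 1, 2902 RPM in WT 2, 3670 RPM in KO 1 and 3712 RPM in KO 2, with the WT libraries on either side of the KO libraries. mt-Cytb had 2216 RPM in WT 1, 2497 RPM in WT 2, 2735 RPM in KO 1 and 3146 RPM in KO 2, with both KO libraries above both WT libraries. The share of all 4815 genes tested with such a separation upwards was 20.5%.

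No mRNA of the family passed limma's voom test of KO against WT, in which 1 of 4815 genes passed (0.0208%), Mov10 itself (limma adjusted p = 0.0335), and 500 genes had an unadjusted p under 0.05. The log2 changes were -0.55 for mt-Co1 with a standard error of 0.25 (limma adjusted p = 0.450), -0.55 for mt-Co3 with 0.26 (0.481), 0.31 for mt-Cytb with 0.21 (0.624), -0.04 for mt-Atp6 with 0.23 (0.965) and 0.03 for mt-Co2 with 0.18 (0.965). With no filter on low read numbers mt-Co1 passed (log2 change -0.55, limma adjusted p = 0.0472, 96 of 13831 genes called). WT 1 decided the values of mt-Co1 and mt-Co3. Without WT 1 they were 0.01 for mt-Co1 and 0.04 for mt-Co3, with mt-Atp6 at 0.37. Without WT 2, which left WT 1 as the only WT library, they were -1.09 and -1.11. When libraries were scaled by their total reads instead, all genes had a median log2 change of 0.11. On that scale mt-Co1 was at -0.47, mt-Co3 at -0.48, mt-Atp6 at 0.04, mt-Co2 at 0.14 and mt-Cytb at 0.42 (limma adjusted p = 0.374).

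**Figure D5:**
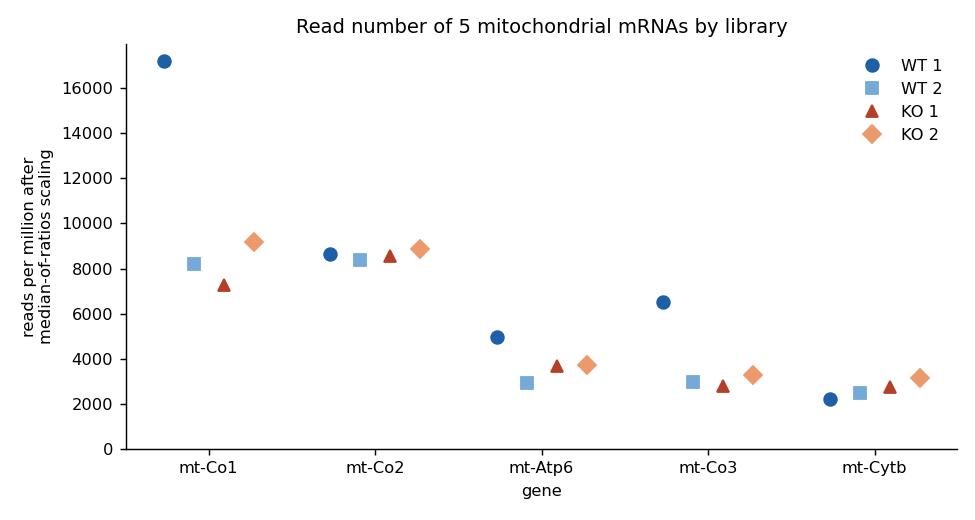
Read number of 5 mitochondrial mRNAs in 4 libraries, in RPM after median-of-ratios scaling (linear axis from 0). mt-Co1 and mt-Co3 of WT 1 stand at 17214 and 6493 RPM, apart from the other libraries, and mt-Co2 lies between 8378 and 8851 RPM in all 4.

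The ratio to mt-Co2 within a library removes its scaling. For mt-Co1, WT 1 had a ratio of 1.99, WT 2 of 0.979, KO 1 of 0.848 and KO 2 of 1.03, and for mt-Co3 the libraries had 0.752, 0.353, 0.325 and 0.369 in the same order. For mt-Atp6 it was 0.574 in WT 1 and from 0.346 to 0.428 in the others, and for mt-Cytb it was 0.257 in WT 1 and from 0.298 to 0.355 in the others. WT 1 was therefore at 1 end for each of the 4 ratios. Over the 146 genes that averaged 500 reads or more, log2 ratios of WT 1 to WT 2 were taken after median-of-ratios scaling. The ratio was 1.07 for mt-Co1 and 1.13 for mt-Co3, at the 95.2 and 95.9 percentiles, while mt-Cytb was at -0.17 and the 6.85 percentile. The median over these genes was 0.28, so abundant genes in general lay higher in WT 1 on this scale. Its size depends on the scaling: the scaled library sizes were 396244 for WT 1 and 362484 for WT 2, on totals of 439535 and 351133 reads. Between the KO libraries the log2 ratios of the 5 mRNAs ranged from -0.33 (mt-Co1) to -0.02 (mt-Atp6), with a median over these genes of 0.06. How these differences arose between the WT libraries was not tested.

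Genes that make, assemble or partner these proteins were compared from lists, by counts. None of them passed the limma tests for tail length or read number. Of 6 complex I mRNAs tested, 5 had longer median tails in KO, with a median log2 change of 0.06; mt-Nd1 was at 0.09 for tails and 0.30 for reads, and mt-Nd3 had the smallest p for reads, with a log2 change of 0.69 and a limma adjusted p of 0.290. Tails were longer in KO in 9 of 11 nuclear complex IV genes (median log2 change 0.09), in 13 of 16 complex V genes (0.03) and in 6 of 10 complex III and cytochrome c genes (0.03), with 51.8% of all genes tested above 0 and a median of 0.01. These directions rest on WT 1, as WT 2 had the longest tails of the 4 libraries in all 3 nuclear groups. Both KO libraries lay above both WT libraries in 0 of 11 complex IV, 2 of 16 complex V and 1 of 10 complex III genes. The same held for 3 of 6 complex I mRNAs and 3 of 5 symbols that may share reads with mitochondrial genes. The share of all genes tested with this separation was 14.7%. Cox4i1, the complex IV gene with the most reads, had median tails of 96.8 nt in WT 1, 125.5 nt in WT 2, 122.9 nt in KO 1 and 118.4 nt in KO 2, with WT 1 alone below the rest.

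For read number, the median log2 change was -0.33 over the 11 nuclear complex IV genes, of which 2 were higher in KO. Scaled by total reads, their sum was 11137 RPM in WT 1, with WT 2 (9261 RPM) between KO 1 (9445 RPM) and KO 2 (8593 RPM). Both KO libraries lay below both WT libraries in 3 of the 11 and above in 1, beside 20% and 20.5% of all genes tested. The median log2 change was -0.13 over the complex III list, with 4 of 10 higher, and -0.04 over the complex V list, with 7 of 16 higher. Over all 4815 genes tested 2408 (50%) were higher in KO. Atp5h, a subunit of the stalk of ATP synthase, had the smallest p of the complex V list (log2 change 0.56, limma adjusted p = 0.406). Of 27 assembly factors of complexes III to V, 20 had enough reads, with a median of -0.25 and 8 higher in KO. Uqcc2, an assembly factor of complex III and the one with the most reads, was at 0.18.

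Of 25 genes for transcription, processing, tailing and decay of mitochondrial RNA, 16 had enough reads for the test of read number, with a median log2 change of 0.23 and 11 higher in KO. Slirp, which with Lrpprc binds and stabilises mitochondrial mRNAs, had the most reads: 84 reads in WT 1, 136 reads in WT 2, 218 reads in KO 1 and 160 reads in KO 2. Its level was 212.0 RPM in WT 1, below 375.2 RPM in WT 2, 309.7 RPM in KO 1 and 356.7 RPM in KO 2, with a log2 change of 0.24 (limma adjusted p = 0.833). Trmt10c, a subunit of the enzyme that cuts the 5′ ends of mitochondrial transfer RNAs, had 15 and 14 reads in the WT libraries against 12 and 7 in the KO libraries (log2 change -1.18, limma adjusted p = 0.403). Only 4 genes of this list had enough reads for the test of tail length.

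The deposited table also marks genes as bound by Mov10 or not, the bound ones by presence of m6A. All 5 mRNAs were marked "no" in each of these 3 classes, the class of genes not bound included. The marks thus place them neither among the bound nor among the unbound genes.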

How the data were processed

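The authors deposited a table with 1 row per read from 4 direct RNA libraries of oligo(dT)-selected RNA (SQK-RNA002, R9 flow cells, per the labels' protocols). Its tail lengths are estimates in nt, not normalized. The submitters' processing notes name minimap2 2.20 without a role. The basecaller, tail length tool, build and read filters are not given in the sources used here.

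All reads with a tail length above 0 were used, with symbols as deposited. Each gene was given 1 value in each library. Tail length was tested with limma 3.58.1 in R 4.3.3 (lmFit, eBayes with log2 mean reads as trend) on log2 medians (at least 20 reads in each library) and on log2 10th and 90th percentiles (at least 50 reads). Reads per gene, counted here, were tested with voom after median-of-ratios scaling (mean of at least 10 reads, 0.5 reads added). P-values were adjusted by Benjamini-Hochberg over all genes tested, at 0.05. Tables were handled with pandas 2.3.3 in Python 3.11.15, and exact tests used scipy 1.17.1. The 10 pairs of mRNAs were compared by exact sign-flip tests within libraries (10 rather than all pairs of 6 symbols, as mt-Atp8 had no reads). On simulated data the limma scripts recovered 17% of log2 changes of 0.5 and 70% of changes of 1 in median tail length. At the 10th percentile these shares were 43% and 82%, and at the 90th percentile 84% and 98%. For read number they recovered 21.2% of log2 changes of 1 and 84.6% of changes of 2. Read numbers were simulated with a preset spread that was not estimated from these libraries, so these shares may differ in the real data. Smaller changes were not simulated, so a gene that was not called may still differ.

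The mRNAs and gene lists were chosen with earlier results of these data known. From each list were named the gene with the most reads and those with the smallest p in each test; likeness in tail length was ranked over genes with at least 20 reads in each library. Merging the reads of the partner symbols with those of their mRNAs was chosen after seeing the data. With them merged, log2 changes in read number were -0.51 for mt-Co1, -0.54 for mt-Co3, -0.02 for mt-Atp6 and 0.03 for mt-Co2. Those in median tail length were 0.05, 0.04, 0.06 and 0.05 in the same order. Alternatives changed the summary, filter, scaling, model and block, or left out each library.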

Additional observations from a re-analysis of the deposited data

How the results depend on the processing

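With 2 libraries per genotype, single libraries moved many values. With each library left out in turn, the number of genes called ranged from 0 to 2 for median tail length, from 0 to 1 for the 10th percentile, from 0 to 6 for the 90th percentile and from 0 to 456 for read number. The largest of these counts, except the tie at the 10th percentile, came without WT 2; without WT 1 read number gave 90 genes. The lone library left in a genotype is assumed to vary like the other genotype. The median log2 change of the 5 mRNAs at the 10th percentile ranged from 0.0591 to 0.112 and was 0.0412 with libraries centred, against 0.10. Left-out libraries also turned directions: log2 changes ranged from -0.00670 to 0.101 for mt-Co2 and from -0.0487 to 0.219 for mt-Cytb in median tail length. At the 90th percentile they ranged from -0.0175 to 0.0671 for mt-Co1, -0.0140 to 0.0824 for mt-Co2, -0.0114 to 0.0511 for mt-Co3 and -0.0618 to 0.186 for mt-Cytb, and in read number from -1.09 to 0.0107 for mt-Co1, -0.43 to 0.37 for mt-Atp6 and -1.11 to 0.0391 for mt-Co3. The 90th percentile gave 3 genes called with a minimum of 20 reads and 0 with libraries centred, against 1. Read number gave 7 genes with scaling by total reads and 7 with scaling by total reads outside mt- symbols, 96 with no filter on low read numbers, and 0 by limma-trend with a pseudocount of 1 or 10 RPM, against 1. With no filter mt-Co1 passed (log2 change -0.55, limma adjusted p = 0.0472). The total scalings turned mt-Atp6 to log2 changes of 0.0448 and 0.0422, and centring turned mt-Co3 at the 10th percentile to -0.00713. The causes were not tested.

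Replicate numbers did not pair the libraries: the correlation of deviations between WT 1 and KO 1 was 0.0135 for tail length over 1935 genes and 0.0162 for read number over 4815 genes. With the replicate block, 0 genes were called for median tail length, 1 for the 10th percentile, 0 for the 90th percentile and 65 for read number, mt-Co1 among the last (log2 change -0.58, limma adjusted p = 0.0341).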
